A study of Mus musculus with 18 samples.

Results

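The cytosolic ribosomal protein genes encode the protein parts of the ribosome that translates nuclear-encoded mRNAs. They were taken by gene symbol: 31 genes of the small subunit (Rps genes and Rpsa), 46 genes of the large subunit (Rpl genes and Rplp0, Rplp1 and Rplp2) and 7 divergent paralogs (Rpl3l, Rpl7l1, Rpl10l, Rpl22l1, Rpl36al, Rpl39l and Rps27l). Together they are 84 of the 38924 genes in the table. Pseudogene copies, the mitochondrial ribosomal proteins and genes named for pseudogenes are not members.

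The study asked how far fibroblasts keep the transcriptome of their organ of origin when their surroundings change. Total RNA was sequenced from mouse fibroblasts of heart (HF), kidney (KF) and tail (TF), either kept in culture (c) or transplanted under the kidney capsule (s), with 3 libraries in each of 6 groups. The groups are therefore HFc, KFc and TFc in culture and HFs, KFs and TFs after transplantation. All donors were labelled male Rosa mT/mG mice of 10 weeks on a C57BL/6 background, a reporter strain in which a membrane TdTomato is expressed broadly rather than in fibroblasts alone. The cells of all 6 groups had grown for 10 days in culture. For HFs, KFs and TFs, 400000 to 500000 cells on gelatin foam were placed under the kidney capsule of syngeneic C57BL/6J mice of 10 to 11 weeks and recovered after 3 days as live CD45- TdTomato+ cells by sorting. For HFc, KFc and TFc, remaining cells were plated again for 3 days. The tail, heart and kidney fibroblasts were thus all recovered from the same host site, and the cultured groups did not go through a host, a foam or the sort. The labels do not say whether the 3 libraries of a group came from separate animals or cultures, so the p-values below measure the spread between these libraries, which may be partly technical.

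A ribosome is built from 2 subunits in the nucleolus, where ribosomal proteins made in the cytoplasm are imported and joined to ribosomal RNA. The small subunit reads the mRNA and the large subunit joins amino acids. Ribosomal protein mRNAs are abundant in growing cells, and most begin with a terminal oligopyrimidine (TOP) tract, a C followed by pyrimidines at the very 5′ end, through which their translation follows the mTORC1 kinase. RNA sequencing does not measure translation.

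The libraries held 17927838 to 32245168 counts each. KFs replicate 3 stood apart: Xist, the RNA of the inactive X chromosome, was at 1716 CPM (counts divided by the library's total, set to the same sum in every library) there and at most 0.396 CPM in the other 17 libraries, while the sum of 4 Y-linked genes was 0.83 CPM there and 174 to 222 CPM elsewhere. All donors are labelled male, so this library goes against its label. The main counts of calls that use it, and some of the kidney values, are given with and without it. All other values that involve KFs, among them those of most single genes and the correlations between organs, include it. With that library left out the typical variation between libraries of a group (biological coefficient of variation in edgeR) was 0.166 in place of 0.24, so that comparisons not involving KFs also called more genes. The summed CPM of 8 fibroblast markers (Col1a1, Col1a2, Col3a1, Pdgfra, Pdgfrb, Dcn, Lum and Thy1, with 7 or 8 of 8 over 1 CPM in every group) was 14158 to 15141 in HFc, 12386 to 13184 in KFc and 13551 to 13766 in TFc. It was 66527 to 111022 in HFs, 20528 to 91068 in KFs, lowest in replicate 3, and 32750 to 38979 in TFs. Col1a1, Col1a2 and Col3a1 made up most of the sum, which moved with transplantation. Of the 8 markers 6, 6 and 5 were called higher after transplantation in heart, kidney and tail, while Thy1, a surface marker of fibroblasts, was lower in heart, at 121, 122 and 116 CPM in HFc and 40.2, 29.0 and 22.7 CPM in HFs (-1.91 ± 0.27 on the log2 scale, edgeR adjusted p = 2.8e-05). The share of counts from mitochondrial genes also moved with transplantation, without overlap in any organ. It was 7.61% to 7.86% in HFc and 11.1% to 17.1% in HFs, 7.86% to 8.27% in KFc and 9.89% to 12.2% in KFs, and 7.3% to 7.69% in TFc and 10.3% to 11.9% in TFs. The part of these shifts in the results below was not tested.

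Of the 84 members, 80 passed the filter on low counts, which 16577 genes passed: 30 of the small subunit, 46 of the large subunit and 4 paralogs (Rpl7l1, Rpl22l1, Rpl36al and Rps27l). Rpl10l, a paralog known from testis, had 0 counts in all libraries, which allows up to 3 counts per library. Rpl39l, also known from testis, and Rpl3l, known from heart and skeletal muscle, had at most 4 counts in any library. Rps27 had 24 counts in all, and Rps27rt, a protein-coding retrogene copy outside the rule, held 26745. Ribosomal protein mRNAs are short and have many processed copies in the genome, so identical sequence matters for what a count means. A median of 34.8% of the 75-base windows of a member's main transcript occurred also in another gene, over 50% in 27 members, over 90% in 2 and none in 8. The 98.5% of Rps27 windows found in Rps27rt therefore leave the level of Rps27 uncertain.

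Levels between genes were compared per length, as CPM per kilobase of main transcript (averaged over the 18 libraries). On this scale Rplp1, a protein of the acidic stalk that recruits translation factors, was highest at 1084, followed by Rpl23a, which lies at the exit of the nascent chain, at 944 and Rpl26, which also contacts that region, at 810. The lowest tested members were Rps25 at 10.6, Rpl7l1 at 15.1 and Rpl36al at 23.3. The median of the tested members was 216. These per-length levels depend on how the authors' counting shared reads between copies.

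The members' summed share of all counts was highest in cultured heart fibroblasts and lowest in transplanted heart fibroblasts. In HFc the share was 2.41%, 2.45% and 2.44% of counts, and in HFs 1.52%, 1.34% and 1.43%. In KFc it was 2.02%, 1.97% and 2.0%, and in KFs 1.80%, 2.23% and 1.35%. In TFc it was 2.14%, 2.2% and 2.17%, and in TFs 1.96%, 1.82% and 1.71%. The cultured and transplanted libraries did not overlap for heart or tail, whereas KFs replicate 2 lay above all KFc libraries and KFs replicates 1 and 3 below them. HFs also spent a larger share on its 50 most abundant genes (40.7% to 40.9%, against 29.2% to 29.4% in HFc), and a share of counts falls when other genes rise.

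The comparisons therefore used TMM scaling, which sets the trimmed mean of all genes equal between libraries. On that scale, the median over the 80 members of the log2 ratio to the HFc mean was -0.62, -0.75 and -0.64 in the HFs libraries. It was -0.34, -0.37 and -0.33 in KFc and -0.33, -0.30 and -0.34 in TFc, so the other cultured fibroblasts sat between HFc and HFs. It was -0.46, -0.52 and -0.68 in TFs and -0.41, -0.16 and -1.04 in KFs, where replicate 2 was the highest and replicate 3 the lowest of all transplanted libraries. By group mean, HFc was the highest of the 6 groups for 74 of the 80 members, and HFs the lowest for 54, TFs for 12, KFc for 6 and KFs for 6. In bulk RNA, fewer cells with high ribosomal protein expression and less of these RNAs in every cell cannot be told apart.

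**Figure D1:**
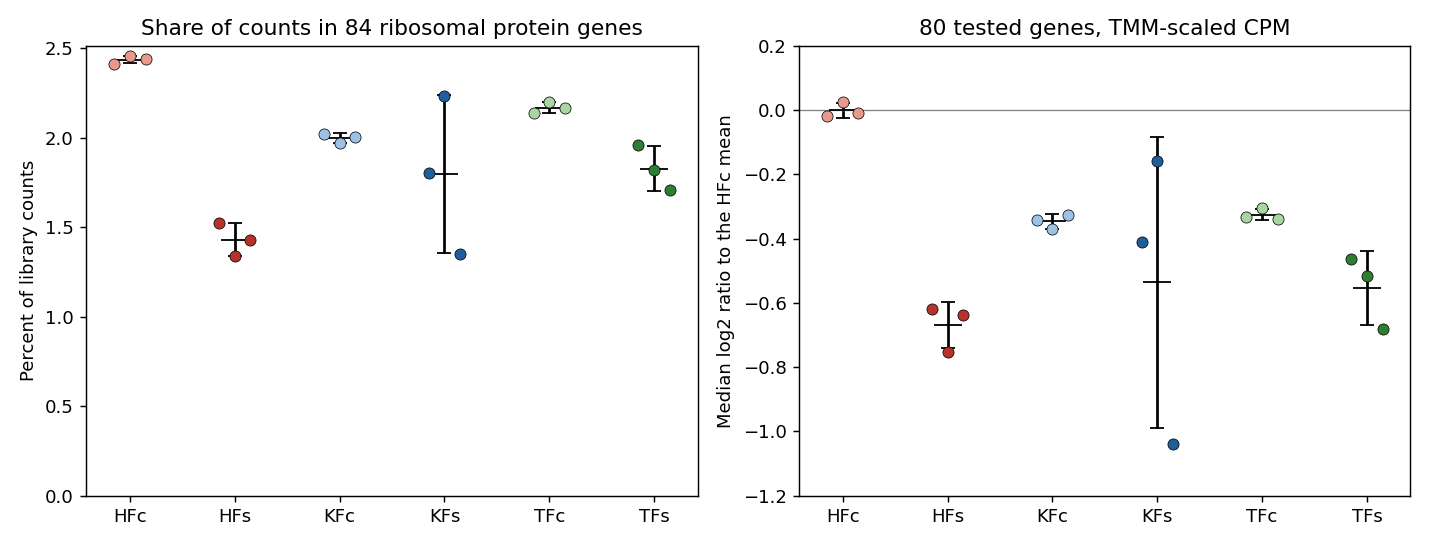
The left panel plots the percent of each library's counts in the ribosomal protein genes, and the right panel the median over 80 members of the log2 ratio to the HFc mean (TMM-scaled CPM). Points are the 3 libraries of each group and bars the mean and SD. HFc sits highest and HFs lies apart from it in both panels, and the KFs libraries are the most spread, from 1.35% to 2.23%.

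The first question was what transplantation did to these genes in cells of each organ. Transplanted heart fibroblasts had lower levels of most ribosomal protein mRNAs than heart fibroblasts kept in culture. Of 80 members, 64 were called lower in HFs than in HFc and 0 higher (edgeR's quasi-likelihood test, Benjamini-Hochberg adjusted p under 0.05). The median log2 change of the members was -0.68, beside a median of 0.05 over all 16577 genes. Over all genes 28.4% were called lower and 28.0% higher. After TMM scaling every HFs library was below every HFc library for 76 of the 80 members, beside 34.0% of all genes. When KFs replicate 3 was left out, 72 members were called lower and 30.3% of all genes, with a member median of -0.66.

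In tail fibroblasts fewer members passed the test, although most of the point estimates were also below 0. Between TFs and TFc 12 members were called lower and 0 higher, and their median was -0.23, beside 0.00 over all genes. The background was 20.2% of genes called lower and 18.6% higher, so the called share of the members did not exceed that of all genes. All TFs libraries lay below all TFc libraries for 50 members, beside 31.2% of all genes. Without KFs replicate 3, which is not in this comparison but widens its estimate of the spread, 45 members were called lower, beside 25.4% of genes, with a median of -0.25. Leaving out 1 library of TFs or TFc left 4 to 9 calls. The count was 4 without TFc replicate 1 or TFs replicate 3, 5 without TFc replicate 2 and 6 without TFs replicate 2. No share of all genes is given here for these runs.

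In kidney fibroblasts the outcome rested on which libraries were used. Between KFs and KFc 14 members were called lower and 0 higher with a median of -0.18, beside 0.09 over all genes. The background was 22.7% lower and 26.1% higher. For only 14 members, beside 25.0% of genes, did every KFs library lie below every KFc library. Without KFs replicate 3 the median was 0.03, and 15 members were lower and 9 higher, beside 26.9% and 24.5% of genes. The 9 that then passed as higher included Rps21, Rpl4, Rpl21, Rpl36a, Rpl3, Rps3a1, Rpl7 and Rps26, and the 15 lower were the earlier 14 and Rps20. Without KFs replicate 2 the median was -0.42 and 44 members were called lower. In a fit of the KFs and KFc libraries alone 0 members passed. The shares of all genes called in these fits are not given here, so neither count can be set against a background. No direction over the members as a whole held for kidney fibroblasts.

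**Figure D2:**
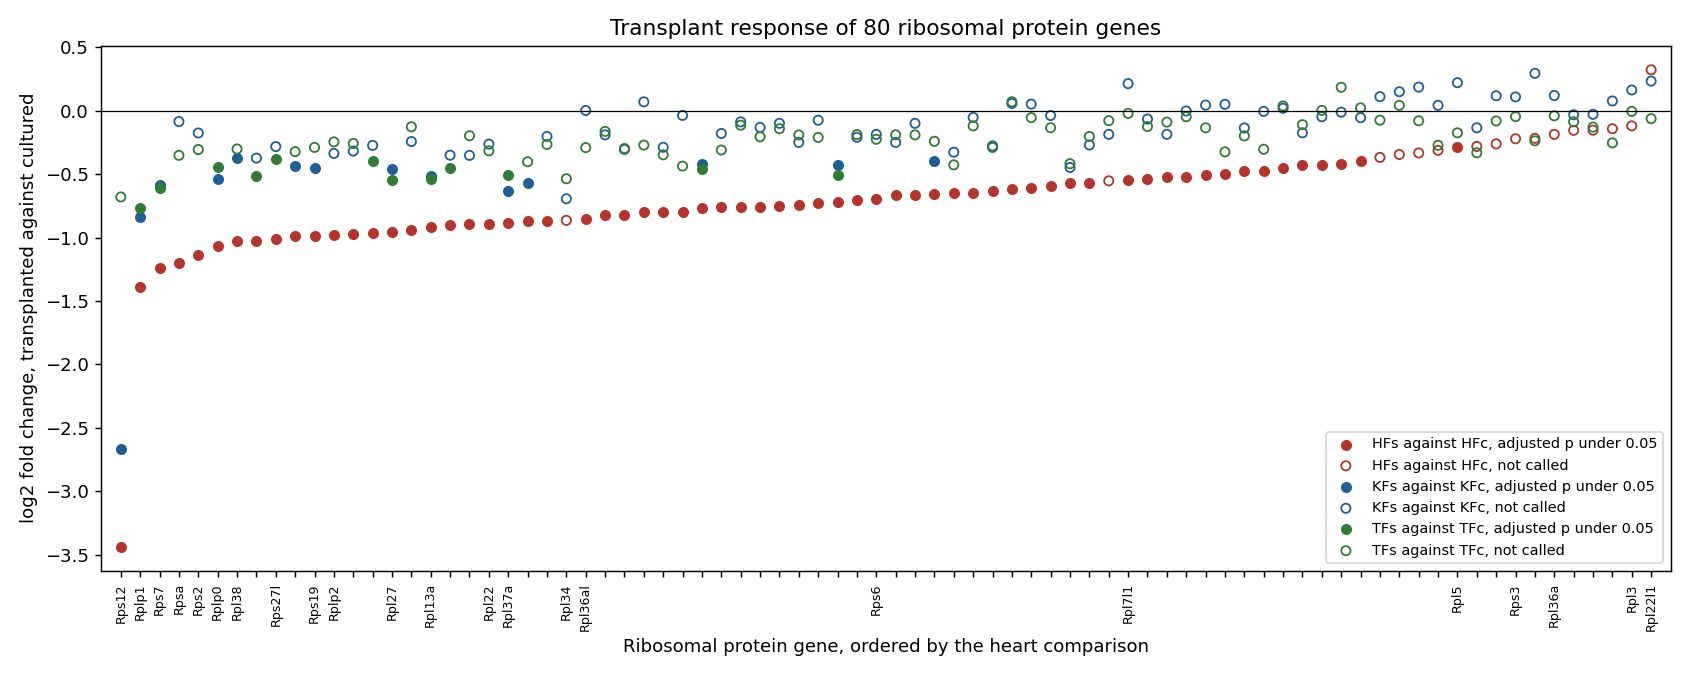
The 80 tested members stand along the horizontal axis, ordered by their log2 fold change in heart fibroblasts, with some of the genes described in the text labelled. The vertical axis is the log2 fold change (transplanted over cultured) in heart, kidney and tail. Filled symbols passed the test: 64 in heart, 14 in kidney and 12 in tail, all of them below 0.

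The 3 comparisons share no libraries, and only the estimate of the spread is common to them. At an unadjusted p under 0.05 in edgeR, 0 members were higher in heart, 1 in kidney and 0 in tail, while 69, 18 and 21 were lower. DESeq2 called 0 higher in any of the 3. For these and the later counts at an unadjusted p or in DESeq2, the share of all genes is not given here. The 14 members called in kidney and the 12 called in tail were all among the 64 called in heart. Over all genes, 66.7% of those called lower in kidney and 69.6% of those called lower in tail were called lower in heart. 8 members were called lower in all 3 (Rpl13a, Rpl27, Rpl27a, Rpl37a, Rplp0, Rplp1, Rps14 and Rps7), beside 10.9% of all genes, so their share of the 80 was no larger than that of all genes. With pseudogene counts added, Rps7 and Rpl27a no longer passed in kidney or tail and Rpl27 no longer in kidney. 16 members were called in none, among them Rpl10, Rpl10a, Rpl21, Rpl22l1, Rpl3, Rpl34, Rpl36a, Rpl4, Rpl7, Rps21, Rps25, Rps26, Rps29, Rps3 and Rps3a1. As a description over the 80 genes, which are not independent, the log2 changes in heart correlated with those in kidney at r = 0.746 and with those in tail at r = 0.650 when Rps12 was left out, since its counts were unstable (0.883 and 0.631 with it).

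In heart fibroblasts the calls were spread over both subunits. Of the small subunit 24 of 30 tested genes were called lower and of the large subunit 37 of 46, each with a median of -0.68. Members with more than 50% of windows shared with another gene (21 of 26 called, median -0.66) and those with less (43 of 54, median -0.71) had similar values. Across members the log2 change in heart had r = -0.32 with the GC content of the transcript and r = 0.11 with its length. The order of the members by level was largely kept, with r = 0.946 between HFc and HFs, 0.960 between KFc and KFs and 0.990 between TFc and TFs for log2 levels.

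In heart fibroblasts the 3 stalk proteins each had a larger fall than the member median of -0.68. Rplp1, one of the small acidic proteins of the stalk, was at 797, 841 and 842 CPM in HFc and 321, 294 and 296 CPM in HFs. It was at 683, 617 and 595 CPM in KFc and 375, 466 and 235 CPM in KFs, and at 692, 733 and 697 CPM in TFc and 451, 409 and 391 CPM in TFs. Transplanted and cultured libraries did not overlap for any organ. The log2 change was -1.39 ± 0.20 (SE; adjusted p = 2.7e-05) in heart, -0.84 ± 0.20 (0.0024) in kidney and -0.77 ± 0.20 (0.006) in tail. The kidney value of Rplp1 without KFs replicate 3 was -0.61 ± 0.09 (5.8e-05).

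Rplp0, the scaffold to which the stalk proteins bind and a gene often used as a reference in quantitative PCR, was at 1266, 1332 and 1293 CPM in HFc and 666, 560 and 563 CPM in HFs. It was at 1030, 963 and 939 CPM in KFc and 711, 841 and 506 CPM in KFs, and at 1075, 1107 and 1041 CPM in TFc and 827, 800 and 746 CPM in TFs. Every transplanted library was below every cultured library of its organ. The log2 change was -1.06 ± 0.17 (adjusted p = 6.7e-05) in heart, -0.54 ± 0.17 (0.014) in kidney and -0.45 ± 0.17 (0.044) in tail. Leaving out KFs replicate 3 gave -0.35 ± 0.09 (0.0043) for Rplp0 in kidney.

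Rplp2, the partner of Rplp1, was at 545, 554 and 530 CPM in HFc and 268, 244 and 281 CPM in HFs, with no overlap. It was at 434, 436 and 425 CPM in KFc and 355, 444 and 242 CPM in KFs, which overlapped, and at 414, 412 and 421 CPM in TFc and 379, 347 and 329 CPM in TFs, which did not. It fell in heart (-0.98 ± 0.18, adjusted p = 0.00024), and the values in kidney (-0.34 ± 0.18, 0.13) and tail (-0.25 ± 0.18, 0.29) did not pass the test.

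**Figure D3:**
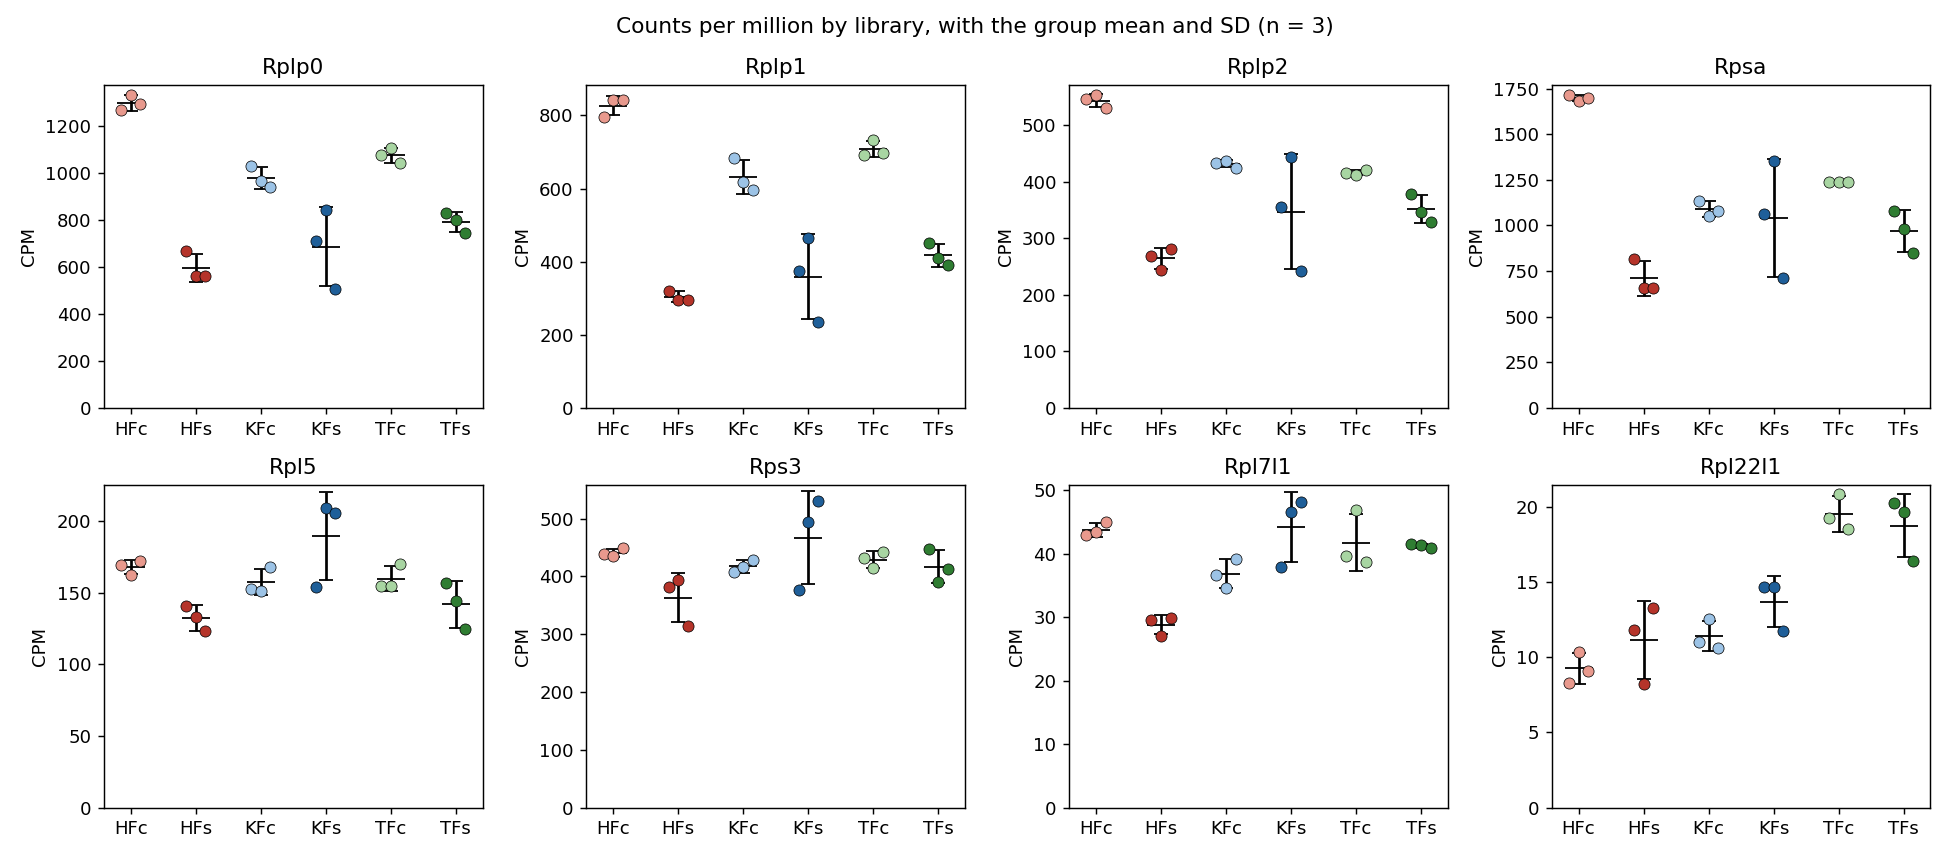
CPM of Rplp0, Rplp1, Rplp2, Rpsa, Rpl5, Rps3, Rpl7l1 and Rpl22l1 in each library, by group, with the mean and SD of 3 libraries. For Rplp0 and Rplp1 the transplanted libraries lie below the cultured libraries of every organ, whereas Rpl22l1 is highest in TFc and TFs.

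Several small subunit proteins also fell in heart fibroblasts. Rpsa, which is also known as a laminin receptor, was at 1714, 1681 and 1699 CPM in HFc and 818, 655 and 656 CPM in HFs. It was at 1135, 1051 and 1080 CPM in KFc and 1061, 1354 and 709 CPM in KFs, and at 1235, 1237 and 1237 CPM in TFc and 1081, 981 and 851 CPM in TFs. HFc was above all other libraries, and the kidney libraries overlapped. The log2 change was -1.2 ± 0.20 (adjusted p = 0.00012) in heart, -0.09 ± 0.20 (0.74) in kidney and -0.35 ± 0.20 (0.17) in tail.

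Rps2, a protein of the mRNA entry region, was at 658, 651 and 648 CPM in HFc and 323, 263 and 269 CPM in HFs. KFs was at 408, 540 and 342 CPM and TFs at 414, 366 and 337 CPM, both above HFs. The log2 change in heart was -1.14 ± 0.16 (adjusted p = 2.1e-05). Rps7 was at 371, 383 and 408 CPM in HFc and 172, 142 and 159 CPM in HFs, and its log2 change was -1.24 ± 0.16 (adjusted p = 1.3e-05) in heart, -0.59 ± 0.16 (0.0071) in kidney and -0.61 ± 0.16 (0.0076) in tail. With the counts of its pseudogenes added, Rps7 no longer passed in kidney (-0.30) or tail (-0.31). Rps19, the gene most often mutated in Diamond-Blackfan anaemia, fell by 0.99 ± 0.13 on the log2 scale in heart (adjusted p = 1.5e-05) and by 0.45 ± 0.13 in kidney (0.01), while the value in tail was -0.29 ± 0.13 (0.093). The kidney values without KFs replicate 3 were -0.41 ± 0.10 (0.0028) for Rps7 and -0.31 ± 0.08 (0.0049) for Rps19.

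Several members have known roles beyond the ribosome. Rps6, the target of the S6 kinases downstream of mTORC1, was at 553, 562 and 584 CPM in HFc and 351, 311 and 344 CPM in HFs, without overlap, and fell by 0.70 ± 0.19 on the log2 scale (adjusted p = 0.0052). Rps27a, made as a fusion with ubiquitin, fell by 0.67 ± 0.17 (0.0039). Rpl13a, studied for its release from the ribosome in inflammatory signalling, fell by 0.91 ± 0.18 (0.00041) and was also called lower in kidney (-0.51 ± 0.18, 0.024) and tail (-0.54 ± 0.18, 0.023). Rpl11 and Rpl26, which act on the Mdm2 and p53 pathway, fell by 0.59 ± 0.17 (0.0073) and 0.71 ± 0.16 (0.0013).

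Rpl5, which binds 5S ribosomal RNA together with Rpl11, was at 169, 162 and 172 CPM in HFc and 141, 133 and 123 CPM in HFs, and fell by 0.29 ± 0.11 (adjusted p = 0.034). In KFc it was at 153, 151 and 168 CPM and in KFs at 154, 209 and 206 CPM, which overlap, and the difference was 0.22 ± 0.11 (0.1). Pseudogenes held 77.0% of the counts of the Rpl5 family. With these added, Rpl5 still passed as lower in heart (-0.48, adjusted p = 0.013). Rps3, a DNA repair-linked protein of the mRNA entry site that shares no window with another gene, was at 439, 436 and 449 CPM in HFc and 381, 394 and 315 CPM in HFs. The HFs libraries were lower than the HFc libraries, but the log2 difference of -0.22 ± 0.10 (adjusted p = 0.075) did not pass.

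The smallest changes among the 64 called lower in heart were those of Rpl5, Rpl28 (-0.40, adjusted p = 0.036) and Rpl31 (-0.42, 0.035). In kidney the smallest were those of Rpl38, Rpl17 (-0.39, 0.037) and Rps14 (-0.42), and in tail Rps27l, Rps18 (-0.40, 0.049) and Rplp0. After Rps12, whose counts are treated below, and Rplp1, the next largest called in kidney was that of Rpl37a (-0.63 ± 0.17, 0.0062). After Rplp1 and Rps7, the next in tail was that of Rpl27 (-0.54 ± 0.13, 0.0044). Rpl38, a protein linked to selective translation of Hox mRNAs in embryos, fell by 1.03 ± 0.13 in heart (8.5e-06) and by 0.38 ± 0.13 in kidney (0.024).

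The divergent paralogs are given beside their canonical partners. Rps27l, a p53 target, was at 37.0, 35.5 and 35.9 CPM in HFc and 19.9, 16.7 and 15.3 CPM in HFs, with no overlap, and its log2 change was -1.01 ± 0.12 (adjusted p = 6.5e-06) in heart and -0.38 ± 0.12 (0.022) in tail. Its partner Rps27 could not be tested. Rpl36al fell in heart by 0.86 ± 0.23 (0.005), from 35.3, 39.2 and 37.0 CPM to 18.2, 21.2 and 19.8 CPM. Its partner Rpl36a was at 124, 129 and 120 CPM in HFc and 116, 90.7 and 108 CPM in HFs, and the difference of -0.19 ± 0.16 (0.35) did not pass. Whether the responses of the partners differ was not tested.

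The first 60 coding bases of these pairs are shown because reads of a paralog can be told from those of its partner only where the sequences differ. The bases at which the partners differ are in capitals, 11 in the first pair and 18 in the second (annotated transcripts on GRCm38).
Rpl36a: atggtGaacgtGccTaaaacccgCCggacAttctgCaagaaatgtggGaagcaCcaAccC
Rpl36al: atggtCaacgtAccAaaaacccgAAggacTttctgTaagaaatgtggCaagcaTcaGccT
Rps27: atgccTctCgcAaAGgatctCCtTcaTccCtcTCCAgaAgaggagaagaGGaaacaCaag
Rps27l: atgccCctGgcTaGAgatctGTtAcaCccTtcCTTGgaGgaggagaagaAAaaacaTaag
Over the whole coding sequence, Rpl36al was 87.7% identical to Rpl36a and Rps27l 76.2% identical to Rps27. Identity was 50.1% for Rpl7l1 and Rpl7 and 66.9% for Rpl22l1 and Rpl22.

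Rpl7l1, a nucleolar paralog of Rpl7, was at 42.9, 43.3 and 44.9 CPM in HFc and 29.5, 27.1 and 29.8 CPM in HFs. It was at 36.6, 34.6 and 39.2 CPM in KFc and 37.8, 46.5 and 48.1 CPM in KFs, and at 39.5, 46.9 and 38.7 CPM in TFc and 41.4, 41.3 and 40.9 CPM in TFs. The HFs libraries were below all others. It fell in heart by 0.54 ± 0.09 on the log2 scale (adjusted p = 9.9e-05), while Rpl7 in heart was at -0.33 ± 0.15 (0.07).

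Rpl22l1 was the member called lower in HFc than in TFc, and 4 others had point estimates below 0 that did not pass (Rpl10a, Rpl3, Rps20 and Rpl10). It was at 8.30, 10.4 and 9.06 CPM in HFc, 11.0, 12.5 and 10.6 CPM in KFc and 19.2, 20.8 and 18.5 CPM in TFc. After transplantation it was at 11.8, 8.24 and 13.3 CPM in HFs, 14.7, 14.7 and 11.7 CPM in KFs and 20.2, 19.6 and 16.4 CPM in TFs, so all 6 tail libraries were above all 12 others. Its log2 change was 0.32 ± 0.18 (adjusted p = 0.14) in heart and 0.23 ± 0.18 (0.29) in kidney, neither passing the test. With pseudogene counts added these became 0.68 (0.0039) and 0.56 (0.014), which passed. Its partner Rpl22, which represses Rpl22l1 in other cells, fell in heart by 0.89 ± 0.16 (0.00022), from 338, 352 and 354 CPM to 183, 170 and 188 CPM.

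The other canonical partners had Rpl3 at -0.12 ± 0.14 (adjusted p = 0.49), Rpl10 at -0.16 ± 0.15 (0.4) and Rps4x at -0.43 ± 0.15 (0.026) in heart, of which Rps4x alone passed. Rpl39 fell by 0.90 ± 0.16 (0.00021).

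Rps12 and Rpl34 are printed apart because, in some libraries, few counts lay on the gene and many on copies that share part of its sequence. The cause was not tested. Rps12 was at 155, 152 and 148 CPM in HFc but 0, 25.7 and 14.1 CPM in HFs, and at 127, 77.2 and 131 CPM in KFc and 37.2, 12.4 and 2.49 CPM in KFs. The log2 changes were -3.44 ± 0.91 (adjusted p = 0.0045) in heart and -2.67 ± 0.87 (0.02) in kidney. Of the windows of Rps12, 82.4% occurred in Rps12-ps3, which had 0 counts in the 18 libraries, and 63.7% in Rps12l1. Rps12l1, a processed pseudogene copy, averaged 92.6 ± 6.59 CPM (SD, n = 3) in HFc and 145 ± 29.6 CPM in HFs. Summed over Rps12 and its copies, the family was at 260 ± 3.89 CPM in HFc and 182 ± 15.3 CPM in HFs, and on the summed counts the log2 change of Rps12 was -0.45 (adjusted p = 0.055) in heart and 0.00 (0.997) in kidney, so neither call for Rps12 stood.

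Rpl34 was at 239, 243 and 232 CPM in HFc and 137, 113 and 127 CPM in HFs, with no overlap, yet it did not pass in heart (-0.86 ± 0.57, adjusted p = 0.21). In KFs replicate 3 Rpl34 was at 11.6 CPM while its copy Rpl34-ps1, at most 0.16 CPM in all other libraries, was at 118 CPM. With the pseudogene counts added the change of Rpl34 in heart was -0.87 (0.00017).

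**Figure D4:**
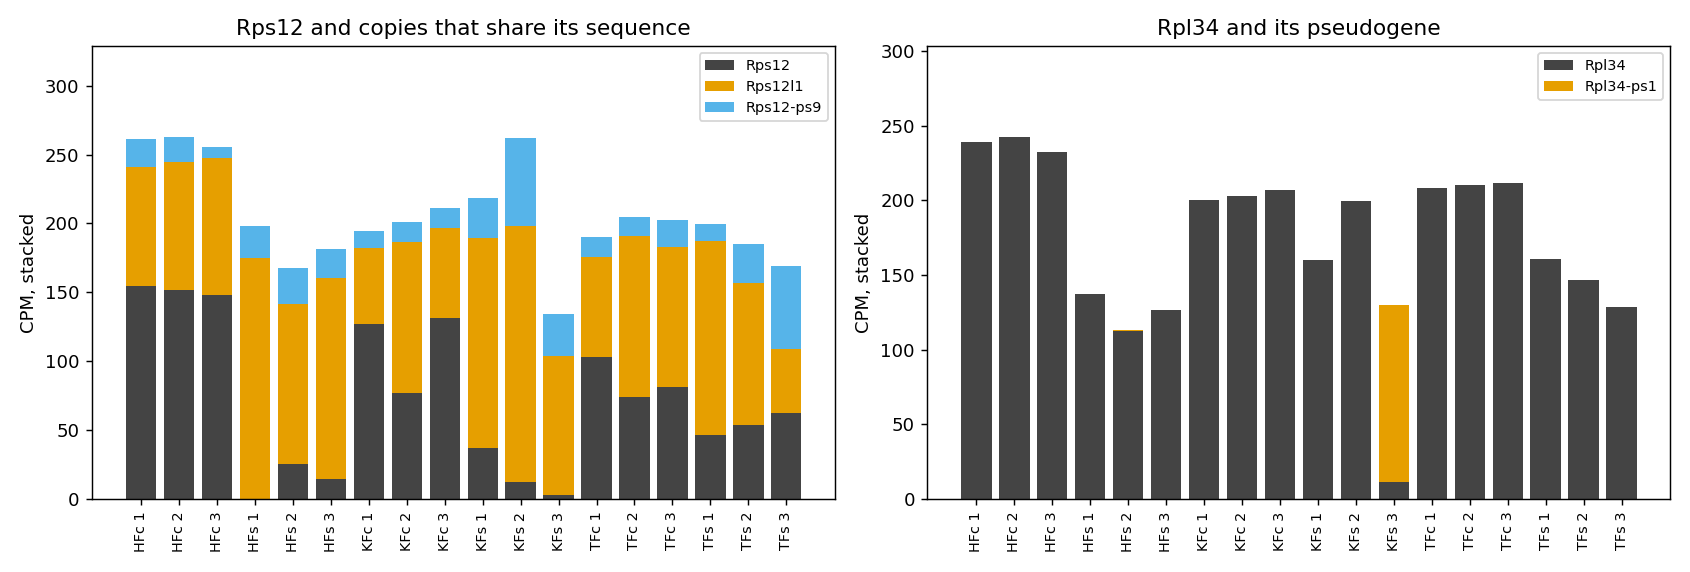
Stacked CPM by library of Rps12 with its copies Rps12l1 and Rps12-ps9, and of Rpl34 with Rpl34-ps1. The split between Rps12 and its copies changes from library to library, and in KFs replicate 3 most Rpl34 counts lie on Rpl34-ps1 (118 CPM against 11.6 CPM).

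In culture, the question was whether ribosomal protein genes differed by organ of origin. These comparisons share libraries with each other and with the transplant comparisons, so HFc enters several of them. HFc was higher than TFc for 20 members and lower for 1 (Rpl22l1), with a member median of 0.33, beside 20.9% of genes higher and 21.0% lower. HFc was higher than KFc for 21 and lower for 0, with a median of 0.35, beside 15.1% higher and 14.0% lower. KFc and TFc differed in 1 member, Rpl22l1, which was lower in KFc (-0.71 ± 0.18, adjusted p = 0.0053), beside 17.8% of genes higher and 18.5% lower. The count for KFc against TFc without KFs replicate 3 was 2 higher and 8 lower, beside 22.5% and 21.3% of genes, and in a fit of these 2 groups alone 14 were higher and 18 lower. The share of all genes called in that fit of 2 groups is not given here. Every HFc library was above every TFc library for 70 members and above every KFc library for 73, beside 31.6% and 29.3% of all genes. At an unadjusted p under 0.05 in edgeR, 41 members were higher and 0 lower in HFc than KFc. In KFc against TFc 0 were higher and 2 lower at that threshold. DESeq2 called 0 lower in HFc than KFc and 0 higher in KFc than TFc.

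Against TFc the highest differences called were those of Rps2 (0.66 ± 0.16, adjusted p = 0.003) and Rpl29 (0.62 ± 0.18, 0.013), and the lowest that of Rpl22l1 (-0.92 ± 0.18, 0.00066). Against KFc the largest were Rpsa (0.73 ± 0.20, 0.011) and Rpl39 (0.60 ± 0.16, 0.0098), and the smallest called Rpl7l1 (0.34 ± 0.09, 0.0084) and Rpl27 (0.37 ± 0.13, 0.042). Without KFs replicate 3, 54 members were higher in HFc than TFc, beside 23.5% of genes, and 56 higher in HFc than KFc, beside 17.0%. With KFs replicate 3 kept, leaving out any 1 of the 6 libraries compared left 5 to 7 calls for HFc and KFc. For HFc and TFc it left 7 (without TFc replicate 3) to 13. Neither range has a share of all genes beside it here.

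After transplantation into the same site, few members passed between organs with all 18 libraries, and many more without KFs replicate 3. HFs was lower than TFs for 2 members, Rpl22l1 (-0.53 ± 0.18, adjusted p = 0.041) and Rpl7l1 (-0.30 ± 0.09, 0.025), and higher for 0, beside 12.7% of genes lower and 10.3% higher. HFs was lower than KFs for 5, among them Rpl12, Rpl5, Rpl7l1 and Rps27l, of which Rps27l differed most (-0.49 ± 0.12, 0.0067), beside 19.0% of genes lower and 14.2% higher. KFs was higher than TFs for Rpl5 alone (0.44 ± 0.11, 0.0066) and lower for 0, beside 15.3% higher and 13.8% lower. At an unadjusted p under 0.05 in edgeR, 0 members were higher in HFs than in TFs or KFs, and 5 and 10 were lower. In KFs against TFs 5 were higher and 1 lower at that threshold. DESeq2 called 0 higher in HFs than in TFs or KFs and 0 lower in KFs than TFs. With its pseudogene counts added, Rpl5 passed in neither of these comparisons (0.14 against TFs, adjusted p = 0.54, and -0.22 for HFs against KFs, 0.29). These counts were larger without KFs replicate 3: 20 members lower in HFs than TFs (16.3% of genes), 65 lower in HFs than KFs (20.7%) and 36 higher in KFs than TFs (18.3%).

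The difference between organs in the transplant response was tested as an interaction, which again uses the libraries of both cultures and both transplants. At an unadjusted p under 0.05 in edgeR, 0 members had a smaller fall in heart than in tail or kidney, and DESeq2 called 0. At that threshold in edgeR, the heart response was lower for 33 against tail and 44 against kidney. The fall in heart exceeded that in tail for 14 members and was smaller for 0, with a median difference of -0.46 on the log2 scale, beside 12.7% of genes called lower and 10.1% higher. It exceeded the response in kidney for 19 members and was smaller for 0, with a median of -0.51, beside 15.5% lower and 10.7% higher. Kidney and tail responses differed for 0 members in edgeR and 0 in DESeq2, with 1 at an unadjusted p under 0.05 in edgeR, a median of 0.06 and a background of 6.07% lower and 4.99% higher. Without KFs replicate 3, 54 members differed between heart and tail (16.2% of genes lower), 74 between heart and kidney (17.2%) and 13 were higher in the kidney than in the tail response (9.72%).

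Against tail the largest differences were those of Rpsa (-0.85 ± 0.28, adjusted p = 0.04) and Rps2 (-0.83 ± 0.22, 0.014), and the smallest called those of Rps16 (-0.52 ± 0.18, 0.047) and Rpl7l1 (-0.52 ± 0.13, 0.0078). Against kidney the largest were Rpsa (-1.11 ± 0.28, 0.0085) and Rps2 (-0.96 ± 0.22, 0.005), and the smallest called Rps19 (-0.54 ± 0.19, 0.043) and Rpl5 (-0.51 ± 0.15, 0.023, lost with pseudogene counts added). With KFs replicate 3 kept, leaving out any other library left 3 (without HFs replicate 2) to 11 calls against tail. Against kidney it left 5 (without HFs replicate 2) to 14. Shares of all genes in these runs are not given here. HFc was both the highest culture and the one against which the fall in heart was measured, so the interaction and the culture difference are not separate observations.

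The members' promoters are shown because shared start-site letters are the feature by which ribosomal protein mRNAs are classed. RefSeq promoter sequences (GRCm38.p6) were matched by symbol for 64 of the 84 members. The first base was C in 32.8% of them and in 16.2% of all 27025 promoters. A C followed by at least 4 pyrimidines lay exactly at the listed start in 12 members, 18.8%, against 2.49% of all promoters. These are the 30 bases before and 20 bases from the listed start of 5 members with such a run, which is in capitals, and of Rplp0 without one.
Rplp2 (chr7:141447621-141447670, plus strand): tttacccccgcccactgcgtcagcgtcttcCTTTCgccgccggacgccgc
Rps6 (chr4:86857348-86857397, minus strand): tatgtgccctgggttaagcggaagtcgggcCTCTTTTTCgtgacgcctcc
Rpl38 (chr11:114668550-114668599, plus strand): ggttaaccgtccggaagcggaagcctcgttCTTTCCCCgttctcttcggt
Rps18 (chr17:33955646-33955695, minus strand): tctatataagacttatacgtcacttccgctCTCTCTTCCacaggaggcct
Rpl28 (chr7:4792935-4792984, plus strand): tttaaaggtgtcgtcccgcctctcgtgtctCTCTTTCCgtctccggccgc
Rplp0 (chr5:115559437-115559486, plus strand): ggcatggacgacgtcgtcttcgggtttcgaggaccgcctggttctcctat
The listed RefSeq start and the start of the main GENCODE transcript coincided for 12 of the 64 and lay within 5 bases for 19. They lay 281 bases apart for Rplp2, 45 for Rps6, 56 for Rpl38, 336 for Rps18 and 91 for Rpl28, and coincided for Rplp0. A TOP tract is defined by the true first base, so a run printed here may not lie at that base. A tract absent here may lie elsewhere.

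Other letters were searched in the same promoters, on both strands. CCGGAAG, a core bound by ETS factors, was in 39.1% of member promoters and 9.12% of all. AAGATGG, a YY1 core, was in 14.1% against 6.48%. CTTTCC within 10 bases before to 20 after the start was in 14.1% against 1.26%, on the coding strand, and can overlap the pyrimidine run. TATAAA, 40 to 15 bases before the start, was in 1.56% against 2.22%. Of the 11 tested members with a pyrimidine run at the start, 10 were called lower in heart fibroblasts, with a median of -0.82. Of the 49 with a listed promoter without it, 39 were called lower, with a median of -0.65. Point estimates were below 0 for 11 and 48 of them. With CCGGAAG 20 of 24 were called lower (median -0.71) and without it 29 of 36 (-0.56). Over all genes 28.4% were called lower in heart. These are counts with no test, and a match of letters is not a bound site.

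Other genes of the ribosome and of translation were counted in lists by role. Of 3 genes that make ribosome-linked proteins but fall outside the rule, Rack1, a small subunit scaffold, fell in heart by 0.93 ± 0.15 on the log2 scale (adjusted p = 9.4e-05).

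Most of the listed genes that build the ribosome fell in heart fibroblasts, and more of them rose than fell in kidney fibroblasts. Of 36 tested ribosome biogenesis genes 31 were lower and 1 higher in heart (median -0.99), 5 lower and 13 higher in kidney (0.17), and 16 lower and 0 higher in tail (-0.33). Over all genes 28.4%, 22.7% and 20.2% were lower in heart, kidney and tail, and 28.0%, 26.1% and 18.6% higher. More genes were thus called higher than lower in kidney over all genes too. Rrp9, a U3 snoRNP protein, fell most in heart (-1.96 ± 0.15, adjusted p = 5.5e-08) and also fell in kidney (-0.73 ± 0.14, 0.00054), whereas Ubtf, a factor of RNA polymerase I, rose in heart by 0.22 ± 0.07 (0.011). In kidney Dkc1, the pseudouridine synthase dyskerin, rose most, by 1.00 ± 0.12 (9.7e-06), from 14.2 ± 1.76 CPM to 29.4 ± 6.54 CPM (SD, n = 3), while it fell in heart by 0.83 ± 0.12 (4e-05), from 21.8 ± 1.72 CPM to 11.8 ± 0.93 CPM. The heart response was below the kidney response for 33 of 36 and above for 0, beside 15.5% and 10.7% of all genes. The interaction for Dkc1 was -1.83 ± 0.17 (9.7e-06). In tail the called genes ran from Bysl (-0.91 ± 0.14, 0.00017) to Tsr1 (-0.29 ± 0.11, 0.04), both small subunit assembly factors. The kidney counts without KFs replicate 3 were 6 lower and 11 higher with a median of 0.11, beside 26.9% and 24.5% of all genes. Dkc1 was then at 0.88 ± 0.12 in kidney (2.5e-05) with an interaction of -1.70 ± 0.17 (4.9e-06).

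Of 77 tested mitochondrial ribosomal protein genes 59 were lower and 2 higher in heart (median -0.60), 23 and 2 in kidney (-0.17), and 31 and 2 in tail (-0.29). The backgrounds are those given above, 28.4%, 22.7% and 20.2% of all genes lower in heart, kidney and tail. The kidney count without KFs replicate 3 was 24 lower and 2 higher (-0.17). Mrps6 fell most in all 3 (-2.05, -1.61 and -1.33 in heart, kidney and tail) and Mrpl48 rose most (0.92, 0.74 and 0.57). Of 16 other genes with TOP mRNAs, 13 were lower and 0 higher in heart (-0.50), 5 and 2 in kidney (-0.20), and 4 and 0 in tail (-0.27), so that the tail share was near its background. In kidney there were 5 lower and 3 higher without KFs replicate 3 (-0.08). Eef1d, a subunit of the elongation factor that reloads eEF1A, fell most in heart (-1.13 ± 0.15, adjusted p = 1.7e-05), Eif4b least (-0.23 ± 0.08, 0.015), Hnrnpa1 rose most in kidney (1.12 ± 0.19, 0.00018) and Eef2, the translocase, fell most in tail (-0.45 ± 0.12, 0.0078).

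Of 24 initiation and growth-control genes 13 were lower and 2 higher in heart (median -0.34), 8 and 5 in kidney (-0.14), and 8 and 2 in tail (-0.19). Over all genes 28.4%, 22.7% and 20.2% were lower in heart, kidney and tail, and 28.0%, 26.1% and 18.6% higher. Leaving out KFs replicate 3 gave 9 lower and 7 higher in kidney (-0.12), beside 26.9% and 24.5% of all genes. Mycn, a Myc family transcription factor, fell from 35.2 ± 3.41 CPM in HFc to 0.75 ± 0.18 CPM in HFs (-5.46 ± 0.47, adjusted p = 1.8e-07), and fell in kidney by 1.32 ± 0.43 (0.018). It was at 0.15 ± 0.13 CPM in TFc and 0.17 ± 0.14 CPM in TFs. Mxi1, a Myc antagonist, rose most in heart (1.42 ± 0.17, 3.9e-06), and Ddit4, an inhibitor of mTORC1, rose most in kidney (2.08 ± 0.16, 8.7e-08) and in tail (1.69 ± 0.16, 1.2e-06). Mlst8, an mTOR complex subunit, fell most in tail (-0.74 ± 0.14, 0.00059). Of 5 tested noncoding snoRNA host genes with TOP starts, 1 was higher in heart (Snhg5, 0.43), 2 were higher and 1 lower in kidney (Snhg5, 0.51, and Snhg12, -0.72), and 1 was lower in tail (Snhg12, -0.50).

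**Figure D5:**
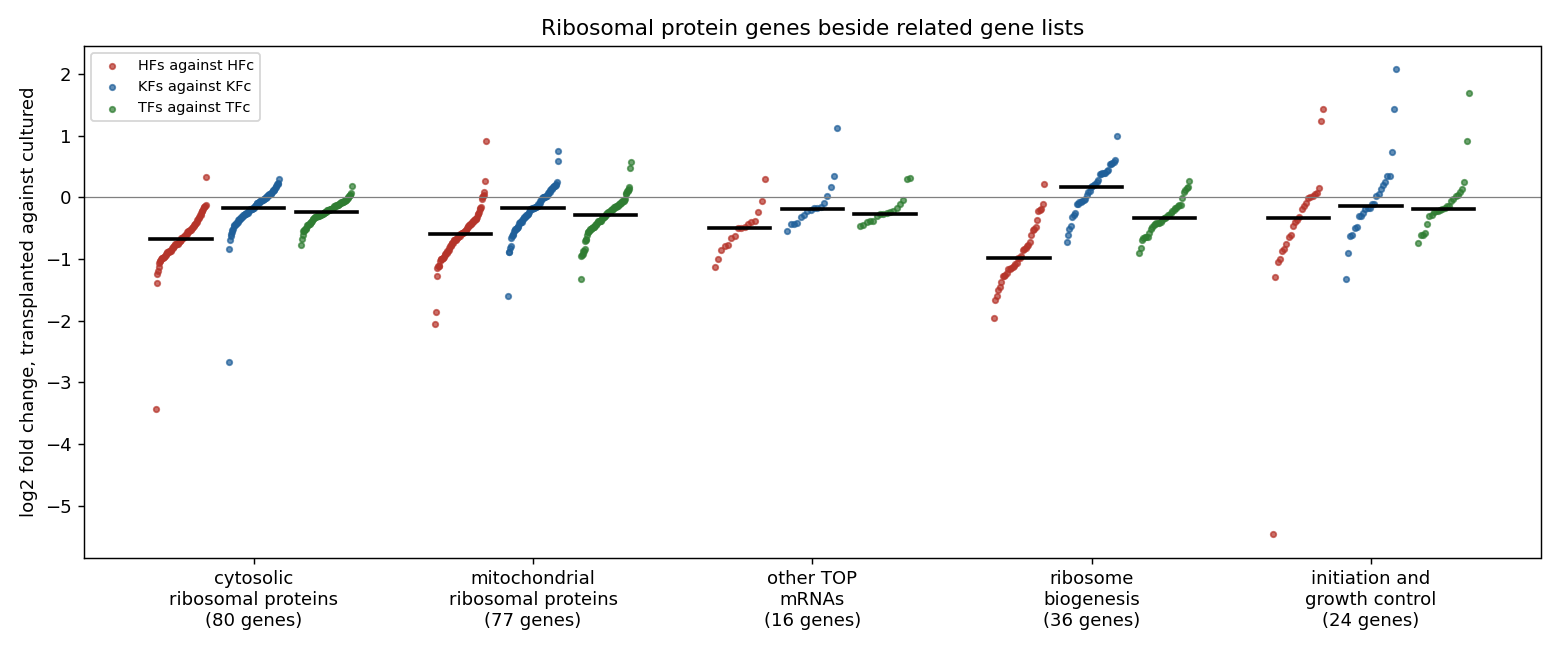
Log2 fold change (transplanted over cultured) of each tested gene in the ribosomal protein genes and in the related lists, in heart, kidney and tail, with bars at the medians. For ribosome biogenesis the heart median is -0.99, the kidney median 0.17 and the tail median -0.33.

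Markers of other cells were at low levels beside the fibroblast markers and moved with some groups. The summed CPM of 12 proximal tubule markers was 19.7 to 21.0 in HFc, 120 to 1114 in HFs, 98.8 to 106 in KFc, 64.7 to 128 in KFs, 15.5 to 18.7 in TFc and 138 to 366 in TFs, with 6 of 12 at 0 in HFc and TFc and 7 in KFc. That of 10 macrophage markers was 106 to 124 in HFc, 97.7 to 161 in HFs, 493 to 530 in KFc, 15.6 to 161 in KFs, 203 to 234 in TFc and 43.6 to 55.7 in TFs, and the CD45- gate is described for the transplanted cells. That of 6 endothelial markers was 37.7 to 40.2 in HFc and 52.5 to 60 in HFs, without overlap, and 5 of 6 were called higher in HFs. It was 35 to 37.1 in KFc, 27.7 to 44.3 in KFs, 38.3 to 42.4 in TFc and 44.6 to 46.7 in TFs. That of 6 erythroid markers was 0.12 to 38.7 in HFs, 0.138 to 7.41 in KFs, 2.77 to 9.23 in TFs and at most 0.211 in the cultured groups. Of the 12 proximal tubule markers 12, 10 and 12 were called higher in heart, kidney and tail after transplantation, and 0 lower. Lrp2 alone made up most of their sum in KFc, at 99.5, 99.3 and 92.9 CPM. Of the 6 endothelial markers 3 were also called higher in kidney and 3 in tail, with 1 lower in kidney. Over all genes 28.0%, 26.1% and 18.6% were called higher in heart, kidney and tail. The part of these cells in the results for the ribosomal protein genes was not tested.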

How the data were processed

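The authors trimmed the 75-base single-end reads of a stranded total RNA kit, aligned them with Bowtie and counted them with RSEM, and deposited expected counts per Ensembl gene, here whole numbers. The methods name GRCm38 and the submitters' processing notes mm9, and the annotation release is not given in the sources used here. Symbols were taken for 37607 of 38924 identifiers, and the rest held 0.277% of counts. CPM are counts scaled to a common library total (the usual CPM), and fitted log2 changes use TMM scaling.

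All 18 libraries entered 1 edgeR 4.0.16 quasi-likelihood fit (R 4.3.3, filterByExpr, 1 coefficient per group) with Benjamini-Hochberg adjustment over the 16577 genes that passed the filter, and an adjusted p under 0.05 is a call. SE is the log2 change divided by the square root of F. Values after ± are SE for log2 changes and SD for CPM. DESeq2 1.42.0 and other scalings, filters, thresholds and libraries were alternatives. Tested on simulated data for HFs against HFc, with 12599 genes, the fit recovered 43 of 104 genes changed 2-fold and 95 of 96 changed 4-fold, with 5 false calls.

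Windows of 75 bases were compared between GRCm38 transcripts to find shared sequence, and 101 pseudogenes were assigned to the member holding at least 50% of their windows. Start-site sequences are from RefSeq (GRCm38.p6). The members and lists were chosen with earlier results of these data known. Named genes are paralogs and their partners, members of fixed roles, and the highest and lowest by level or called log2 change. Rps20 and the other members given only in counts or sets, and Ncl, Npm1, Fbl and Myc, were named after their values were seen.

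Some genes are not reported here.

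The labels do not say whether same-numbered libraries share an animal or culture, and their residual correlations (-0.139 to 0.0792 in 27 pairs, none over 0.1) did not pair them.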

Additional observations from a re-analysis of the deposited data

Results flagged for a closer look

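The response to transplantation differed between organs by the interaction test for 14 members between heart and tail and for 19 between heart and kidney (adjusted p under 0.05 in edgeR), and all these differences were below 0. Over all genes 12.7% and 15.5% were called below 0 in these comparisons, and 10.1% and 10.7% above. Those named by rule against tail were Rpsa (-0.85), Rps2 (-0.83), Rpl7l1 (-0.52) and Rps16 (-0.52) on the log2 scale. Those against kidney were Rpsa (-1.11), Rps2 (-0.96), Rps19 (-0.54) and Rpl5 (-0.51). Both interactions use HFc and HFs, and the kidney one includes KFs replicate 3, the library that goes against its label. Without that library the counts were 54 and 74, beside 16.2% and 17.2% of all genes called lower.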

How the results depend on the processing

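In heart fibroblasts the fall of the members kept its direction in every alternative run, with a median of -0.62 with DESeq2 or its size factors, -0.74 with library size alone, -0.63 with only the groups compared and -0.71 to -0.60 with 1 library left out. The median was -0.42 to 0.03 in kidney and -0.29 to -0.18 in tail with 1 library left out. In Rps12 the kidney value reversed to 0.0012 when pseudogene counts were added. The cause of the changes below was not tested, apart from stricter thresholds calling fewer by construction. The share of all genes called in each alternative run is not given here, except that without KFs replicate 3 above. This holds also for the other runs with 1 library left out and the fits of single comparisons given above. These counts therefore do not say whether members changed more often than other genes.

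At an adjusted p under 0.01 the calls were 5 in kidney, 3 in tail, 7 for HFc against TFc, 3 for HFc against KFc, 0 for HFs against TFs, 2 for HFs against KFs, and 2 and 5 for the heart response against tail and kidney. With a log2 change beyond 1 they were 9 in heart, 1 in kidney, 1 for heart against kidney responses and 0 in tail and in all other comparisons. Fitting only the groups compared gave 0 in kidney, 39 in tail, 73 for HFc against TFc, 32 for KFc against TFc, 71 for HFc against KFc, 0 for KFs against TFs, 0 for HFs against KFs, and 57 and 5 for the heart response against tail and kidney. Library size alone gave 20 in tail, 4 for KFc against TFc, 41 for HFs against TFs, 2 for KFs against TFs, 33 for HFs against KFs, and 33 and 48 for the heart response.

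DESeq2 gave 2 for KFs against TFs, and its size factors 12 for HFc against KFc and 1 for HFs against TFs. Without a filter there were 4, 0 and 3 for HFc against KFc, HFs against TFs and HFs against KFs, and 7 and 8 for the heart response. A mean of at least 10 counts gave 12 for HFc against KFc, and thinning to 17927838 counts 12 there and 2 for KFs against TFs. Added pseudogene counts gave 8 in kidney, 1 for HFs against TFs and 0 for KFs against TFs. A replicate block gave 1 for HFs against TFs in place of 2, and 65, 16 and 13 in heart, kidney and tail. The labels give same-numbered libraries only a shared number.

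With 1 library left out, KFs replicate 3 included, the calls were 50 to 72 in heart, 9 to 44 in kidney, 4 to 45 in tail, 7 to 55 for HFc against TFc, 1 to 10 for KFc against TFc, 5 to 56 for HFc against KFc, 0 to 21 for HFs against TFs, 1 to 36 for KFs against TFs, 1 to 65 for HFs against KFs, and 3 to 54, 0 to 13 and 5 to 74 for the heart against tail, kidney against tail and heart against kidney responses. Of the values of named genes over 7 alternatives, 923 kept direction and side of the threshold, 37 lost the call, 26 gained it and 1 reversed. 4 members had too few counts to test.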

Other observations

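Of the ribosome biogenesis list, 3 nucleolar genes and the transcription factor Myc, all chosen after their values were seen, are given as values. Ncl, nucleolin, fell in heart by 1.16 ± 0.15 on the log2 scale (edgeR's quasi-likelihood test, adjusted p = 8.3e-06) and was at 0.25 ± 0.14 in kidney (0.17) and 0.12 ± 0.14 in tail (0.55). Fbl, the methyltransferase fibrillarin, fell in heart by 1.08 ± 0.16 (3e-05) and rose in kidney by 0.39 ± 0.15 (0.043), and Npm1, nucleophosmin, fell in heart by 0.72 ± 0.16 (0.0011) and rose in kidney by 0.40 ± 0.16 (0.045). The heart response was below the kidney response for Ncl, Fbl and Npm1 (interaction -1.40, -1.47 and -1.12, adjusted p = 0.00024, 0.00026 and 0.0018). Myc fell in heart by 0.87 ± 0.14 (7.2e-05) and rose in kidney by 0.73 ± 0.14 (0.00039), with an interaction of -1.59 ± 0.19 (6e-05). Mycn, described above, was called lower in both heart and kidney. The tail values of Fbl, Npm1 and Myc are not given here, and whether Myc acts on the listed genes was not tested.

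Without KFs replicate 3 the kidney values were 0.33 ± 0.13 for Ncl (adjusted p = 0.049, now passing), 0.39 ± 0.16 for Fbl (0.055, no longer passing), 0.52 ± 0.13 for Npm1 (0.0038) and 0.67 ± 0.14 for Myc (0.001). The interactions were then -1.47, -1.45, -1.22 and -1.52, all passing.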
